A study of Mus musculus with 6 samples.

Results

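The genes described here are 31 contractile and actin-linked genes of smooth muscle, taken by symbol from a table of 24391 genes: actins, myosins and their regulators, tropomyosins, calponins and other thin-filament proteins, and proteins of dense bodies and adhesions. Their transcripts were counted by RNA sequencing in atherosclerotic lesion tissue of 6 mice on a C57BL/6 background, 3 labelled wild type (WT) and 3 labelled Col15a1 -/- (KO), all fed a Western diet for 18 weeks. The tissue came from arteries given as BCA, the brachiocephalic artery, and the labels call it a mixture of cell types, smooth muscle cells and macrophages among them. The series title calls the deletion smooth muscle cell-specific, but the labels name no promoter or Cre line, no other allele and no age. The comparison asked how lesions labelled Col15a1 -/- differed from wild type lesions. Col15a1 is the gene of a collagen of basement membrane zones.

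Smooth muscle contracts when calcium and calmodulin activate a kinase that phosphorylates the regulatory light chain of myosin, which then pulls on actin filaments. The filaments carry tropomyosin, caldesmon and calponin and are anchored in dense bodies in the cell and in adhesions at its surface. In atherosclerosis, smooth muscle cells that enter the lesion can lose much of this gene program, so these genes are widely used to follow the contractile state of the artery wall. Many of them depend on serum response factor, which binds a short element named the CArG box, together with cofactors such as myocardin.

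The promoters of several members showed that element. The upstream 250 bases of the RefSeq transcription start (GRCm38.p6) were given for 28 of the 31 genes, all but Actg2, Myh11 and Tagln. An exact CArG box was CC, then 6 bases that are each A or T, then GG, a pattern with the same form on either strand. Such a box lay in the upstream stretch for 6 of the 28 members (21.4%) and for 1.62% of 27025 genes with such a stretch. When 1 base of the A and T core was allowed to differ, the counts were 8 of 28 members and 9.78% of genes. A match describes the letters only and is not evidence that a factor binds. The stretches below are shown because they carry the elements of Acta2, the most used marker of the program, which has a pair of boxes with 1 differing core base each, and of the 3 members Myl9, Cnn2 and Filip1l with an exact box; capitals mark the boxes, and each sequence is read 5′ to 3′ on the gene's strand.
Acta2, minus strand, chr19:34255374-34255487: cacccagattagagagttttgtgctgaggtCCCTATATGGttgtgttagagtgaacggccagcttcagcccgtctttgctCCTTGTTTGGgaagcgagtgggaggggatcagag
Myl9, plus strand, chr2:156775273-156775342: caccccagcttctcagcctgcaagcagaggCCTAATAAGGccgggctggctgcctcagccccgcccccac
Cnn2, plus strand, chr10:79988514-79988583: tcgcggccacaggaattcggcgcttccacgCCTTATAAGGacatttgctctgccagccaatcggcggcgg
Filip1l, plus strand, chr16:57549150-57549219: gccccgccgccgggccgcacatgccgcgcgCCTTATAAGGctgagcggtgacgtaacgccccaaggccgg
The boxes begin 84 and 34 bases before the start of Acta2, 161 before that of Myl9, 56 before that of Cnn2 and 62 before that of Filip1l. Vcl, Ldb3 and Myl6 also held an exact box. Cnn2 and Filip1l share the same 10 letters, yet their fitted differences, given with their roles, had opposite signs.

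Total counts ran from 22223584 to 26982005 per library, and the smallest count of any member in any library was 400 (Des in WT 2), so counting error was small beside the spread between animals. Col15a1 was at 574, 407 and 501 CPM (counts scaled to the size of the library, so that libraries can be compared) in WT 1, WT 2 and WT 3 and at 193, 198 and 91.0 CPM in KO 1, KO 2 and KO 3, with no overlap between the groups. Transcripts of Col15a1 thus remained in KO, at a ratio to WT of 0.33 (edgeR adjusted p 0.587). WT 2 and KO 3 stood apart: 18 markers of sympathetic nerve summed to 4807 and 9204 CPM there and to 337 to 487 CPM in the other 4 libraries. None of the 18 nerve markers was at 0 in any library. Counts and medians over the members are therefore given with and without these 2 libraries. Most values of single genes and of other lists are given with all libraries only.

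The tissue had the transcripts that define smooth muscle, and they were abundant. The 31 members took 1.72% (KO 3) to 3.74% (KO 2) of all counts. As FPKM, CPM divided by the exon length in kilobases, the unit in which genes of different length can be compared, the highest WT mean levels were those of Myl6 (1111 ± 213 FPKM; SD, n = 3), Acta2 (823 ± 272), Flna (776 ± 189), Tagln (727 ± 203), Myl9 (469 ± 150) and Myh11 (469 ± 125). The mean ± SD ranges of neighbours in this order overlapped, but such ranges do not compare genes within a library. Within libraries, Myl6 ranked first in all but KO 2, where Acta2 did. The ranks of Acta2, Flna, Tagln, Myl9 and Myh11 changed between libraries. These 6 genes held the first 6 ranks in each of the 6 libraries, with Csrp1 seventh throughout, as the plot of level per kilobase shows. Des, the gene of the muscle intermediate filament desmin, had the lowest level in WT (6.51 ± 2.2 FPKM), next to Ldb3 (10.9 ± 2.7) and Palld (11.9 ± 1.7).

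**Figure D1:**
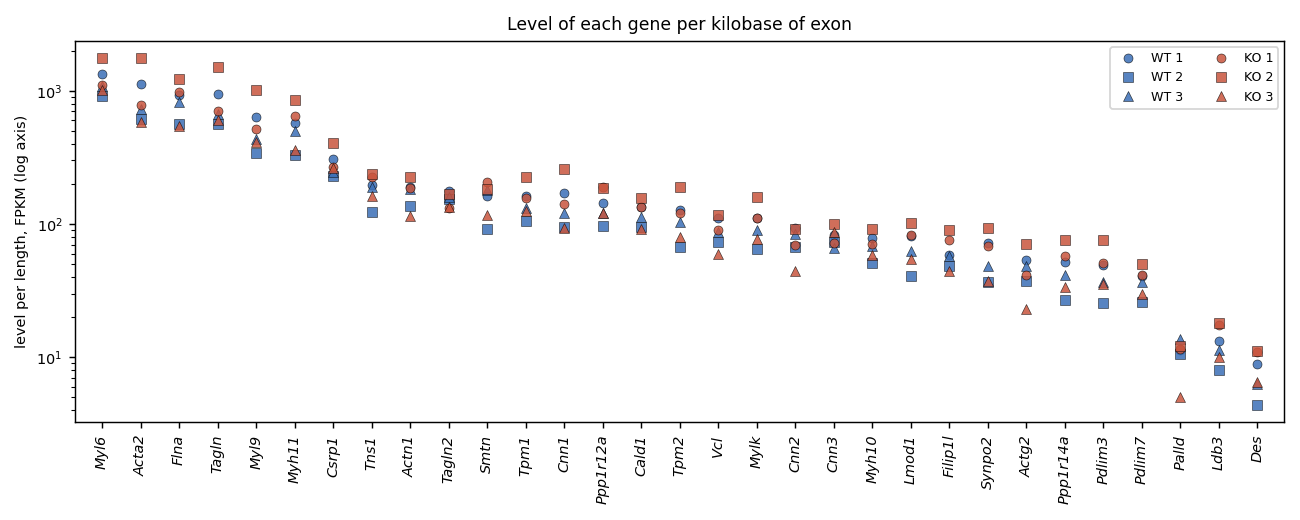
Level of each of the 31 genes per kilobase of exon (FPKM, log axis), with 1 point per library and genes ordered by WT mean. Myl6, Acta2, Flna, Tagln, Myl9 and Myh11 were the 6 highest in every library, and Des had the lowest WT mean, 6.51 FPKM.

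Most contractile and actin genes had higher means in KO, but no difference passed the test and the KO libraries did not share it. All 31 members passed the filter on low counts, and 26 had a positive log2 fold change (KO minus WT), against 60.9% of the 15937 genes tested. The median was 0.34 over the members and 0.068 over all genes tested. By edgeR's quasi-likelihood test no member passed an adjusted p of 0.05, as was so for all genes (0 of 15937, 0%), and 0 members had an unadjusted p under 0.05, against 8% of genes; DESeq2 and limma-voom called 0 members as well. The groups overlapped for every member (0 of 31), while they did not overlap for 16.7% of all genes. In bulk tissue, fewer cells of a type and less RNA per cell cannot be told apart.

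KO 2 carried most of the positive difference. It was the highest library for 26 of the 31 members, against 15% of all genes. The lowest library was WT 2 for 19 members (21.1% of all genes) and KO 3 for 10 (26.2% of all genes). Markers of other cells shared this pattern to different extents. The median log2 CPM minus the WT mean of the 9 pericyte markers was highest in KO 2 (0.39). It was lowest in KO 3 (-0.38) and WT 2 (-0.35). The pericyte sums were 2124 CPM in KO 2, 2106 in WT 1, 1345 in WT 2 and 1307 in KO 3. Of the 9, 3 were highest in KO 2 and 5 had a positive log2 fold change. By the median of log2 CPM minus the WT mean, the 12 fibroblast markers were highest in KO 2 (0.59) and lowest in WT 2 (-0.59). Of these markers, 7 of 12 were highest in KO 2. Their summed levels had another order, highest in WT 1 (6947 CPM) and lowest in KO 3 (3352 CPM). The sums were 6003 CPM in KO 2 and 4561 CPM in WT 2. The 12 adipocyte markers were all positive, with KO above WT for 6 of 12 (8.33% of all genes). Their summed levels were 964 to 1940.5 CPM in WT and 2154 to 2924 CPM in KO, and the lowest median was in WT 2 (-0.97). They did not peak in KO 2, where 1 of 12 was highest. KO 1 had the highest median (1.32) and sum (2924 CPM), against 0.75 and 2181 CPM in KO 2. None of these markers was at 0, and their part in the members' values was not tested. Without KO 2, 17 members were positive (59.6% of all genes) and 14 negative, their median was 0.022, and Acta2, Tagln and Cnn1 turned to -0.28, -0.15 and -0.15. Without WT 2, 23 were positive (57.9% of all genes) and the median was 0.16. Without KO 3 the median was 0.53, 28 were positive (49.5% of all genes) and the KO libraries lay above WT for 13 (14.9% of all genes). The spread within a group, as the SD of log2 CPM, was larger in KO than in WT for 27 of 31 members (87.1%) and for 67.7% of all genes.

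**Figure D2:**
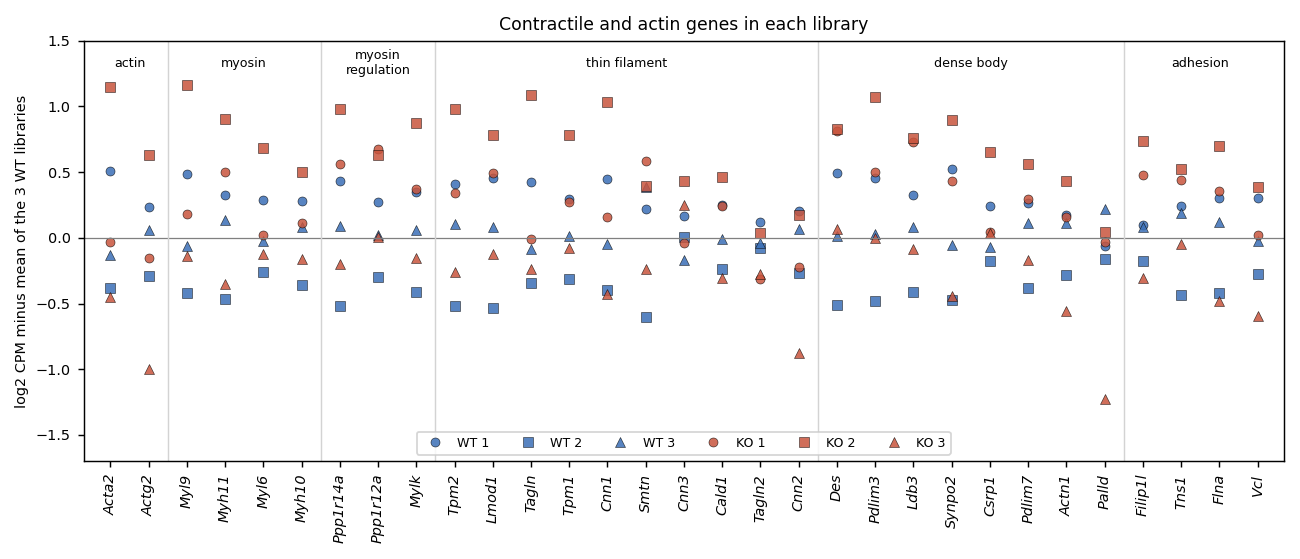
The log2 CPM of each gene in each library minus the mean of the 3 WT libraries, with genes ordered by role. KO 2 (red squares) was the highest library for 26 of 31 genes, and WT 2 (blue squares) or KO 3 (red triangles) the lowest for 29.

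Without WT 2 and KO 3, the 2 libraries with nerve transcripts, the members' median was 0.36, close to the median of 0.34 with all libraries, while that of all genes was 0.0026, and 28 members were positive, against 50.5% of all genes. In these 2 WT and 2 KO libraries, KO lay above WT for 12 members, against 19.6% of all genes: Myh11, Mylk, Ppp1r12a, Ppp1r14a, Lmod1, Des, Ldb3, Pdlim3, Pdlim7, Flna, Tns1 and Filip1l. KO lay below WT for 0 members (21.2% of all genes). None of the 31 passed in edgeR (smallest adjusted p 0.292, Ldb3), and 6 had an unadjusted p under 0.05, against 10.2% of all genes.

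The actins were represented by Acta2, the alpha actin of vascular smooth muscle (chromosome 19, 34314826 to 34329863, mm9), and Actg2, the gamma actin of visceral smooth muscle. Acta2 was at 2907, 1572 and 1873 CPM in the WT libraries and at 1999, 4530.3 and 1499 CPM in the KO libraries, in the order of their numbers. KO 2 was above all others and KO 3 below all others, so the KO values enclosed the WT values. The log2 fold change was 0.34 (SE 0.48, 95% interval -0.84 to 1.52, edgeR adjusted p 0.912). Actg2 was at 70.9, 49.3 and 63.1 CPM in WT and at 54.3, 93.6 and 30.2 CPM in KO, a log2 fold change of -0.042 (SE 0.40), and here too KO 2 was the highest and KO 3 the lowest. Per length, Acta2 exceeded Actg2 by 15.2 to 25.4 times in each library. Actin genes have nearly identical coding sequences, and multi-mapping reads were left out of the counts, so the levels of both are uncertain.

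The myosin genes had positive differences in all 4 cases. Myh11, the smooth muscle heavy chain and the most restricted marker of the lineage, was at 3801, 2193 and 3335 CPM in WT and at 4290.4, 5670 and 2379 CPM in KO. KO 1 and KO 2 lay above the 3 WT libraries and KO 3 within their range, for a log2 fold change of 0.40 (SE 0.40, 95% interval -0.56 to 1.37, edgeR adjusted p 0.861). Myl9, the regulatory light chain, was at 686, 367 and 470.3 CPM in WT and at 557, 1102 and 446 CPM in KO. Only KO 2 was above the WT range, and the log2 fold change of 0.47 (SE 0.41) became -0.021 without KO 2. Myl6, the essential light chain, and Myh10, a non-muscle heavy chain also found outside muscle, had log2 fold changes of 0.22 (SE 0.27) and 0.15 (SE 0.24).

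The genes that set myosin phosphorylation were alike in size and sign. Ppp1r12a, the subunit that targets myosin phosphatase to myosin, had the smallest unadjusted p of all members. It was at 492, 332 and 413 CPM in WT and at 650, 631 and 409 CPM in KO, with KO 1 and KO 2 above every WT library and KO 3 inside the WT range. The log2 fold change was 0.45 (SE 0.24, 95% interval -0.14 to 1.04), with an unadjusted p of 0.113 and an edgeR adjusted p of 0.688. Mylk, the myosin light chain kinase, was at 863, 509 and 703 CPM in WT and at 874, 1238 and 608 CPM in KO (log2 fold change 0.39, SE 0.32). Ppp1r14a, the phosphatase inhibitor CPI-17, had the lowest CPM of these 3 genes, 21.3 ± 6.7 in WT and 29.6 ± 11 in KO (SD, n = 3 each). Kinase, targeting subunit and inhibitor thus had log2 fold changes of 0.39 to 0.48, and their groups overlapped.

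**Figure D3:**
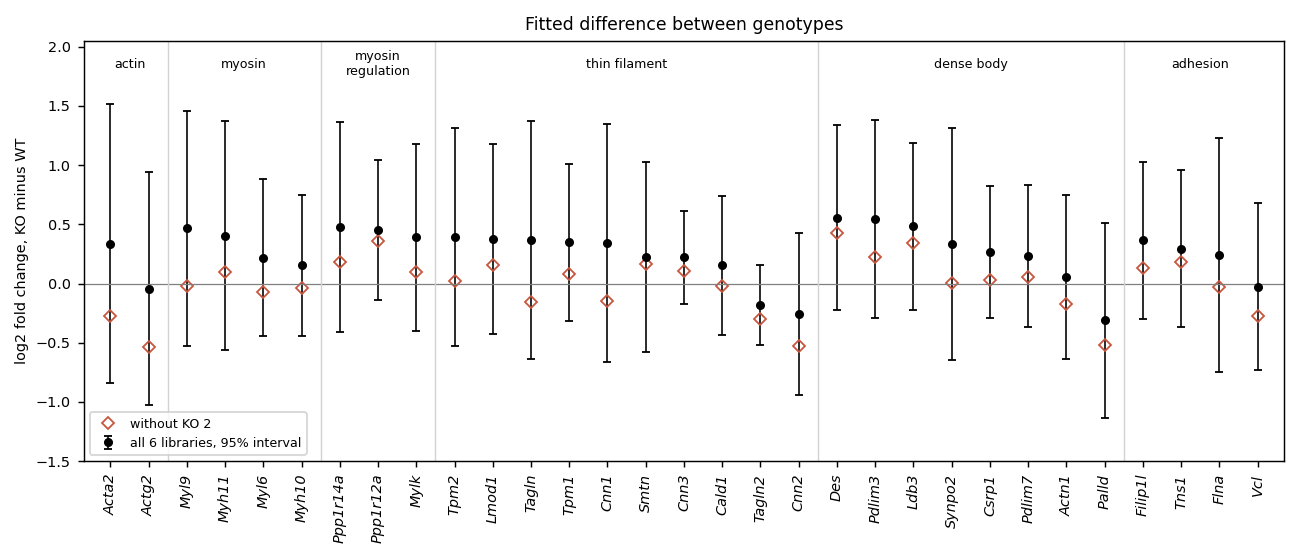
Fitted log2 fold change (KO minus WT) of each gene with its 95% interval from edgeR (black), and the value without KO 2 (open red diamonds). Every interval covers 0, and for all 31 genes the value without KO 2 is lower than that with all libraries, for Acta2 -0.28 against 0.34.

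Of the 10 thin-filament genes, 8 had positive and 2 negative differences. Tagln, the calponin-related protein SM22 alpha, was at 1510.3, 888 and 1059 CPM in WT and at 1119, 2384 and 954 CPM in KO (log2 fold change 0.37, SE 0.41). Cnn1, the smooth muscle calponin, was at 340.3, 189.9 and 242 CPM in WT and at 279, 513 and 186 CPM in KO (0.34, SE 0.41). For both genes KO 1 and KO 3 lay below WT 1, and the KO mean exceeded the WT mean through KO 2. Lmod1, a leiomodin that starts actin filaments, was at 318, 160.2 and 247 CPM in WT and at 327, 400.3 and 214 CPM in KO, with KO 1 and KO 2 above every WT library. Smtn, a smoothelin of contractile cells, was at 573, 323 and 641 CPM in WT and at 735, 647 and 417 CPM in KO, the only one of these 4 genes with KO 1 highest. The tropomyosins Tpm1 and Tpm2 had log2 fold changes of 0.35 and 0.39, and Cald1, the gene of caldesmon, 0.16.

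Among the widely expressed calponins and transgelins, Cnn2 and Tagln2 had negative values and Cnn3 a positive one. Cnn2, a calponin also found in leukocytes and fibroblasts, was at 165, 119 and 151 CPM in WT and at 123, 162 and 78.4 CPM in KO (log2 fold change -0.26, SE 0.28). KO 3 was the lowest library and KO 2 was within the WT range. Tagln2 was at 244, 213 and 219.6 CPM in WT and at 181, 231 and 186 CPM in KO (-0.18, SE 0.14), with KO 1 and KO 3 below every WT library. Cnn3, an acidic calponin that neurons also express, was at 166, 148 and 131 CPM in WT and at 144, 199 and 175 CPM in KO (0.22, SE 0.16), with KO 2 and KO 3 above every WT library. Without KO 2, both remaining KO libraries were below WT for Tagln2 (log2 fold change -0.30, edgeR adjusted p 0.726), the only member separated then (12.6% of all genes).

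Among the genes of dense bodies, which anchor thin filaments as Z-discs do in striated muscle, 7 of 8 differences were positive. Des was at 27.1, 13.4 and 19.4 CPM in WT and at 33.7, 34.0 and 20.1 CPM in KO. KO 1 and KO 2 lay above the WT range and KO 3 within it, and the log2 fold change of 0.55 was the largest among the members (SE 0.32, 95% interval -0.23 to 1.34, edgeR adjusted p 0.708). Pdlim3, a PDZ and LIM protein that binds alpha-actinin, was at 77.3, 40.4 and 57.5 CPM in WT and at 80.03, 119 and 56.3 CPM in KO (0.54, SE 0.34). Ldb3, a related Z-disc protein, was at 80.3, 48.1 and 67.5 CPM in WT and at 106, 108 and 60.2 CPM in KO (0.48, SE 0.29). Synpo2, Csrp1 and Pdlim7 had log2 fold changes of 0.34, 0.26 and 0.24 and Actn1, a non-muscle alpha-actinin, 0.054. Palld, which encodes the actin scaffold palladin, had the lowest value of all members, -0.31 (SE 0.34), with 34.3 CPM in KO 3 against 71.5 to 93.4 CPM in the other libraries.

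Striated muscle shares 7 of the 31 members (Des, Ldb3, Pdlim3, Pdlim7, Synpo2, Tpm1 and Tpm2), and its own markers varied between libraries. The tested skeletal muscle markers, 17 of 18, summed to 584 CPM in KO 1 and to 35.2 to 162 CPM elsewhere, and Myh8 was at 0 in WT 3. The tested cardiac markers, 12 of 14, summed to 221 to 294 CPM in KO and to 132 to 227 CPM in WT, and Csrp3 was at 0 in WT 2. Ryr2 was the largest part of each sum (137, 119 and 108 CPM in WT, 169, 155 and 229 CPM in KO). Myh6 was at 2.36, 4.20 and 68.9 CPM in WT and at 26.7, 72.0 and 30.4 CPM in KO, so WT 3 exceeded KO 1 and KO 3. KO 2 was the highest library for all 7 shared members and for 9 of the 12 cardiac markers, while the skeletal sum was highest in KO 1. The shared members had a median log2 fold change of 0.39, and the 10 muscle-restricted members that striated muscle was not listed to share had 0.37. The part of cardiac and skeletal muscle transcripts in these values was not tested.

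Among the genes of adhesions and the cortex, 3 of 4 differences were positive, with a median of 0.27. Flna, the actin crosslinker filamin A on the X chromosome, had the highest CPM of all members, 6493 ± 1583 in WT and 7672 ± 2904 in KO (SD, n = 3 each). Its log2 fold change was 0.24 (SE 0.40). Tns1, which encodes tensin, and Filip1l, a filamin A interacting protein, had log2 fold changes of 0.30 and 0.36. Vcl, the gene of vinculin, was at 577, 385 and 458 CPM in WT and at 475, 612 and 309 CPM in KO, with a log2 fold change of -0.025 (SE 0.29). Its KO values again enclosed the WT values.

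Members found mainly in muscle and members found in many cells had different medians. The 15 muscle-restricted members had a median log2 fold change of 0.39 (14 positive) and the 16 widely expressed members 0.22 (12 positive); the difference between these medians was not tested. Without KO 2 the medians were 0.098 and -0.026, and without WT 2 and KO 3 they were 0.44 and 0.23. The restricted members summed to 12222, 6849 and 9488 CPM in WT and to 11374, 18177 and 7418 CPM in KO. Sums were highest in KO 2 and lowest in WT 2 and KO 3.

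Ratios between genes do not depend on how libraries are scaled, and for 3 of 10 pairs computed the groups did not overlap. Per length, Cnn1 over Cnn2 was 1.84, 1.43 and 1.44 in WT and 2.03, 2.84 and 2.13 in KO, so each KO library exceeded each WT library. Myh11 over Myh9, the ratio of the smooth muscle to the main non-muscle heavy chain, was 2.96, 1.94 and 2.21 in WT and 3.74, 5.60 and 3.35 in KO. Acta2 over Actb, the common cytoplasmic actin, was 0.562, 0.368 and 0.399 in WT and 0.563, 0.948 and 0.603 in KO, where WT 1 and KO 1 nearly met. The log2 differences were 0.56, 0.82 and 0.65, and with each library left out they ran from 0.41 to 0.68, from 0.60 to 0.99 and from 0.42 to 0.84. Tagln over Tagln2 (4.20 in WT 3, 4.47 in KO 3), Myh11 over Myh10 and Acta2 over Actg2 overlapped. With 3 animals a group, an exact permutation test of such a ratio cannot give a two-sided p under 0.10, so none is given. Separation was common over some denominators: the ratio of a gene to Cnn2 was above WT in each KO library for 9.33% of all genes, that to Actb for 21.8% and that to Myh9 for 34%.

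Measured against Myh11, 21 of the other 30 members had a lower mean ratio in KO, and for 6 of them each KO library was below each WT library, against 9.78% of all genes. They were Palld, Cnn2, Actg2, Vcl, Actn1 and Flna, of which all but Actg2 are widely expressed. Cnn2 was at 4.35%, 5.43% and 4.53% of the Myh11 CPM in WT and at 2.88%, 2.86% and 3.30% in KO. Flna was at 206%, 216% and 207% in WT and at 190.0%, 182% and 192% in KO. Against the sum of the 15 restricted members in place of Myh11, Actg2, Cnn2 and Vcl were still below (7.64% of all genes) and Pdlim3 was above in every KO library (0.307% of all genes), so the separation of Palld, Actn1 and Flna depends on the reference. Without KO 3, 13 of the 30 members lay below every WT library relative to Myh11, against 64.2% of all genes, and without WT 2 and KO 3 it was again 13 of 30, against 64.9% of all genes.

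**Figure D4:**
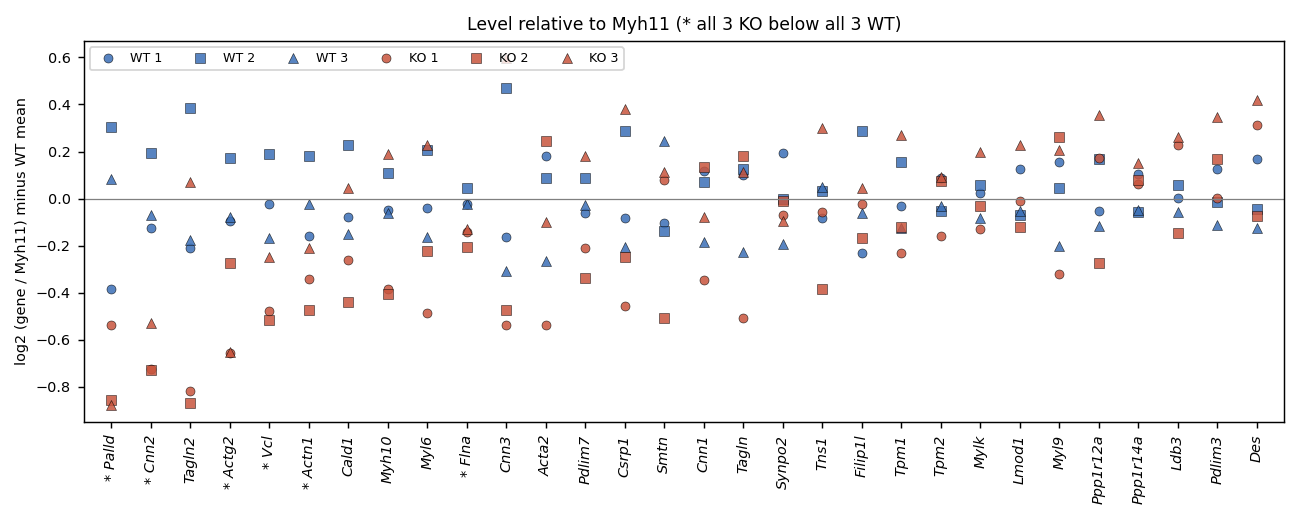
The log2 ratio of each gene to Myh11 in each library, minus the WT mean of that ratio, with genes ordered by the difference between the groups. An asterisk marks the 6 genes whose 3 KO points all lie below the 3 WT points.

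The non-muscle cytoskeleton list, 24 genes that are mostly actins, myosins and actin-linked genes found in many cells, had the opposite sign. The difference was negative for 20 of them and the median over the list was -0.22, and 4 had an unadjusted p under 0.05 in edgeR (Ezr, Tpm3, Actr3 and Actg1; 3.98% of all genes on this side), though none passed adjusted (smallest adjusted p 0.587). KO lay below WT without overlap for 8 of the 24, against 8.38% of all genes. Tpm3, a tropomyosin of non-muscle cells, was at 181, 183 and 188 CPM in WT and at 158, 154 and 125 CPM in KO, and Actr3, a subunit of the Arp2/3 complex, at 321, 336 and 319 CPM and at 263, 275 and 195 CPM. Ezr, the gene of the membrane linker ezrin, was at 33.0, 35.7 and 35.2 CPM in WT and at 27.5, 29.8 and 26.1 CPM in KO. The 16 tested macrophage markers had lower levels in KO as well, with sums of 6425 to 7800 CPM in WT and of 1931 to 5087 CPM in KO, 14 of 16 negative and none at 0. Their part in the cytoskeletal values, and in the ratios to Actb, Myh9 and Cnn2, was not tested. Leaving out KO 2 gave a list median of -0.33, and leaving out WT 2 and KO 3 gave -0.15.

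Genes of the smooth muscle membrane and of contraction signalling had the sign of the members. In the list of 26 genes of dense plaques, caveolae and the dystrophin complex 23 were positive, with a median of 0.25 (0.091 without KO 2), and KO was above WT without overlap for 3 (8.33% of all genes). Among them, Dtna, the dystrophin partner dystrobrevin, was at 71.7, 57.8 and 55.0 CPM in WT and at 92.9, 102 and 81.9 CPM in KO. Itga1, a collagen-binding integrin subunit, was at 140.1, 125 and 117 CPM in WT and at 161, 188 and 157 CPM in KO. The edgeR adjusted p of Dtna and of Itga1 was 0.587. Among 25 contraction signalling genes 21 were positive, with a median of 0.23; Rgs5, a brake on G protein signalling that pericytes also express, had the smallest unadjusted p (0.0269; 4.02% of all genes were under 0.05 and higher in KO) and was at 182 to 220 CPM in WT and 233 to 285 CPM in KO. Rock1, a kinase that inhibits myosin phosphatase, had a log2 fold change of 0.43 (SE 0.21), and Gucy1b3, a subunit of the nitric oxide receptor, 0.60 (SE 0.29).

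Serum response factor and its cofactors differed in sign among themselves, and none passed the test. Srf, named here outside the rule, had a log2 fold change of 0.011 (SE 0.22). Its smooth muscle cofactor Myocd was at 77.2, 55.9 and 71.4 CPM in WT and at 107, 116 and 62.8 CPM in KO (0.48, SE 0.26), with KO 1 and KO 2 above every WT library, as for Myh11 and Ppp1r12a. The actin-sensing cofactor Mkl1 was at 45.1, 45.1 and 55.3 CPM in WT and at 41.0, 40.2 and 31.5 CPM in KO (-0.37, SE 0.15), and Elk3, a ternary complex factor that binds DNA together with Srf, had -0.29 (SE 0.15). For Mkl1 and Elk3 each KO library was below each WT library, 2 of 15 genes against 8.38% of all genes. Of the 15 genes of this list 7 were positive and 8 negative, with a median of -0.021.

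**Figure D5:**
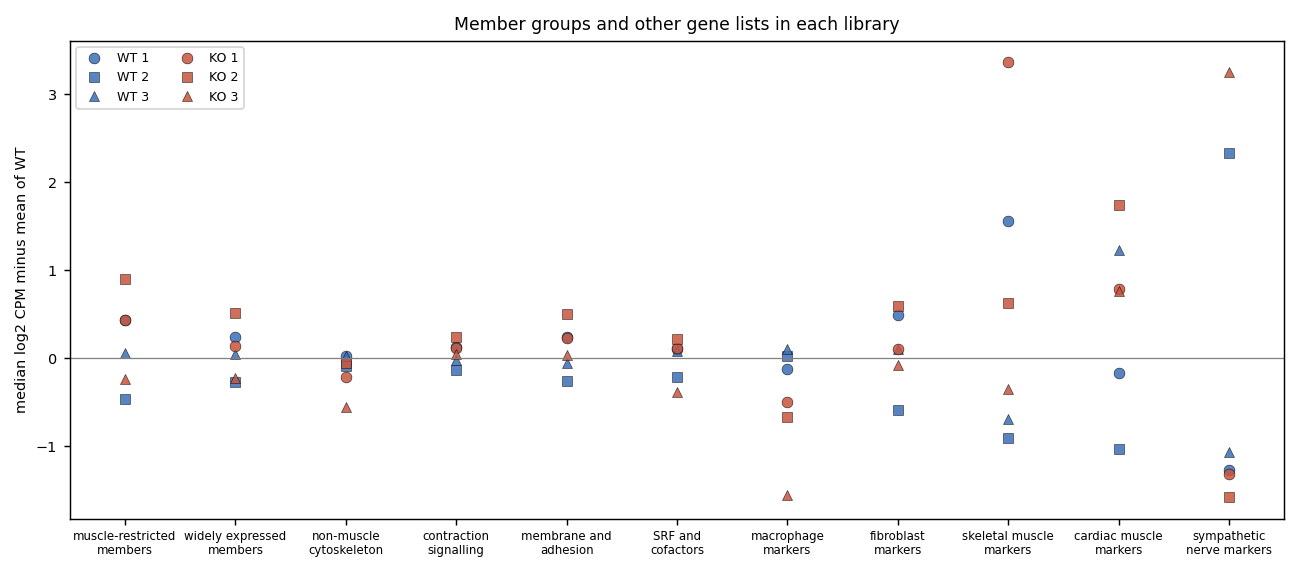
Median over each gene list of log2 CPM minus the WT mean, with 1 point per library. The muscle-restricted members were highest in KO 2 and lowest in WT 2 and KO 3, the libraries with high nerve markers, while skeletal muscle markers were highest in KO 1 and macrophage markers were lower in the 3 KO libraries.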

How the data were processed

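The authors deposited raw read counts per gene for the 6 libraries, with no normalization. Per the file headers, featureCounts 1.4.6-p4 counted reads over exons of a UCSC mm9 annotation, summed by gene name, with no strand, pair or multi-mapping option; the tools named per the submitters' processing notes are DESeq2, Subread, CASAVA and a STAR release written as 3.0. Of alignments, 29.9% to 33.4% were left out as multi-mapping and 0.347% to 0.448% as ambiguous, so genes with near-identical copies can lose counts. Isoforms of a gene are summed.

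The counts of all genes were fitted with edgeR 4.0.16 in R 4.3.3 (TMM, filterByExpr with a minimum count of 10, quasi-likelihood test, two-sided, Benjamini-Hochberg adjustment over 15937 genes, threshold 0.05). CPM are TMM-scaled, FPKM are CPM per kilobase of summed exon length, and standard errors and 95% intervals were derived from the F statistic. Deviations by library used a prior count of 2. DESeq2 1.42.0 and limma 3.58.1 (voom), other scalings and filters, libraries left out and a replicate block were alternatives; ratios between genes were added after the counts were seen.

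The members, lists and tests were chosen with earlier results of these data known. All 31 members are accounted for, with per-library values for leading members of each role and those with the smallest unadjusted p; of other lists up to 3 genes with the smallest p are named, with Actg1, Srf and the per-library values of Cnn2, Tagln2, Palld and Vcl added after values were seen. The values of 1 further gene under that rule are not reported here. On simulated counts with the spread of these libraries (15706 genes), the test called 57 of 98 genes given a 4-fold difference and 2 of 98 given a 2-fold one, with 3 false calls. Groups and replicate numbers came from the sample titles. No pair of replicates agreed within sampling noise. The design gives 3 animals per group, so the spread is that between animals.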

Additional observations from a re-analysis of the deposited data

How the results depend on the processing

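No member passed under any alternative run, and the members' median log2 fold change stayed positive, from 0.25 to 0.36 over other scalings, filters and tools and without WT 2 and KO 3, and from 0.022 to 0.53 with 1 library left out. The number of members with a positive value ran from 17 (without KO 2) to 28, and the number whose groups did not overlap from 0 to 13 with 1 library left out and was 12 without WT 2 and KO 3. Over all genes, edgeR called 0, DESeq2 called 53 (Col15a1 among them, adjusted p 0.00224) and edgeR without WT 2 and KO 3 called 1. Without those 2 libraries Actg2 turned to 0.13 and Vcl to 0.060. With 1 library left out, the values of 12 members took either sign: Acta2 -0.28 to 0.64, Actg2 -0.53 to 0.27, Myh10 -0.041 to 0.30, Myl9 -0.021 to 0.74, Myl6 -0.070 to 0.37, Cald1 -0.019 to 0.34, Cnn1 -0.15 to 0.62, Tagln -0.15 to 0.61, Smtn -0.018 to 0.43, Actn1 -0.17 to 0.29, Vcl -0.27 to 0.20 and Flna -0.032 to 0.51. The cause was not tested.

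With the replicate number as a block, 0 genes and 0 members were called, 741 genes had an unadjusted p under 0.05 against 1275 without it, and the members' median was 0.25. Same-numbered libraries correlated at 0.43, -0.68 and -0.58 after group means were removed, so the numbers share no visible pairing. Relative to Myh11, a comparison chosen after seeing the data, 6 members lay below every WT library with all libraries, 13 without WT 2 and KO 3 (64.9% of all genes did so), and 3 with the summed restricted members as reference.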
